A study of Mus musculus with 2 samples.

Results

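The genes described here are 39 genes of the actin cytoskeleton and of the contractile programme controlled by serum response factor (SRF), out of 25851 genes detected on at least 1 array. They were taken from a list of gene names drawn up with earlier results of these data in view, and no threshold on a measured value entered the rule: SRF and its cofactors Mkl1 and Mkl2, the 6 actin isoforms, filament crosslinkers, transgelins, calponins and caldesmon, myosin chains, tropomyosins, adhesion and LIM-domain proteins, and factors of actin turnover. All 39 had a probe on the array. Of them, 38 had a probe well above background on at least 1 array, and 37 on both.

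EpiSC and ELA-EpiSC were compared, each on 1 one-colour array with no replicate. Both derived from the mouse ES (embryonic stem) line E14Tg2A, of strain 129/Ola and grown on gelatin in serum with LIF, and both were kept in chemically defined medium with FGF2 (12 ng/mL) and Activin A (20 ng/mL), the factors that hold cells in the primed, epiblast-like state. EpiSC came directly from ES cells, whereas ELA-EpiSC came from Epiblast-Like Aggregates (ELA), floating clusters formed by ES cells once serum and LIF are removed, which were then dissociated. Each array carried total RNA pooled from 3 independent experiments, so the spread between cultures was not measured, and all cells came from a single line. The sample titles, used for the grouping, conflict with the source field, which calls the EpiSC sample an Argonaute immunoprecipitate and places both samples at the undifferentiated stage. In RNA of a whole culture, fewer cells of a type and less RNA per cell cannot be told apart.

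SRF binds DNA at the CArG box and activates genes of the actin cytoskeleton, muscle-type contractile proteins and, with ternary complex factors, the immediate-early genes. Its cofactors of the MRTF family, Mkl1 and Mkl2, are held in the cytoplasm by monomeric actin and enter the nucleus when actin is taken up into filaments. Cells that spread and pull on their substrate carry actin bundles, crosslinked by filamins and actinins, moved by non-muscle myosin and anchored at adhesions by vinculin, talin and zyxin. In pluripotent cells the β and γ cytoplasmic actins predominate, and the muscle isoforms are known as markers of mesoderm and of contractile cells.

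The CArG box is a palindrome of 10 letters, CC followed by 6 letters that are each A or T and then GG, so a search of one strand covers both. The search used RefSeq promoter windows of 300 bases (250 before and 50 after each start site, build GRCm38.p6), found for 35 of the 39 genes, Mkl1 and Mkl2 under their newer symbols Mrtfa and Mrtfb. A box lay in the windows of 10 of these 35 genes (28.6%), against 1.81% of all 27025 genes with a window. The list was drawn up in part from genes known to be controlled by SRF, which binds this box. A higher share was thus built into the choice of genes and is no separate result. The windows of Srf, 3 actin isoforms, Myl9, Vcl, Fhl1 and Myl6 are shown, because they include the highest and the lowest difference among the genes with a box; the box is in capitals with 10 bases on each side, 5′ to 3′ on the strand of the gene.
Srf, distal box, chr17:46556225-46556254, minus strand: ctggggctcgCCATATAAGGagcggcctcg
Srf, proximal box, chr17:46556205-46556234, minus strand: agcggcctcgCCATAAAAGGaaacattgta
Acta1, chr8:123894829-123894858, minus strand: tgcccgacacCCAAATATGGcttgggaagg
Actc1, chr2:114052903-114052932, minus strand: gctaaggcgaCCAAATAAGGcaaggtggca
Actg1, chr11:120348566-120348595, minus strand: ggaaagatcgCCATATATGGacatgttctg
Myl9, chr2:156775293-156775322, plus strand: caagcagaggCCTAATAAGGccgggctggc
Myl6, chr10:128493040-128493069, minus strand: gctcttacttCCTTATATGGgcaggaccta
Vcl, chr14:20929161-20929190, plus strand: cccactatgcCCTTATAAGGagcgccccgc
Fhl1, chrX:56779571-56779600, plus strand: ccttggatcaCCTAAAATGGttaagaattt

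The first base of the box lay 82 and 62 bases before the start site in Srf, 73 in Acta1, 47 in Actc1, 90 in Actg1, 161 in Myl9, 50 in Myl6, 227 in Vcl and 102 in Fhl1. Cnn2 held 1 box and Fhl2 held 2, in separate windows. No window was matched for Actb, Actg2, Tagln and Pxn. These matches describe letters in a window, and binding was not measured.

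Levels are normalized log2 signals of the gene's brightest detected probe, and a difference is ELA-EpiSC minus EpiSC on that scale. Where both levels of a gene are given, EpiSC comes first. The yardsticks were the spot error, an SD of 0.10 for a log2 difference over 312 probes printed 10 times on each array, and the spread of all 16649 genes with a mean log2 signal of at least 7.5. The spot error covers printing, hybridization and scanning only. Of the 39 genes, 36 reached that minimum. Actg2, Pxn and Lmod1 did not.

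Most of the contractile and cytoskeletal genes were brighter in ELA-EpiSC. Of the 36 genes above the minimum, 33 had a difference above 0, against 50.2% of all genes, and their median difference was 0.67, against 0.00 for all genes. A difference of at least 1, a doubling of signal, was reached by 12 genes in the direction of ELA-EpiSC (Acta1, Actc1, Flna, Flnc, Tagln, Cnn1, Cnn3, Myl9, Vcl, Zyx, Tln1 and Pdlim7), whereas 4.54% of all genes reached it. In the opposite direction, 1 gene, Fhl1, passed, against 4.46% of all genes. At the smaller size of 0.5, 23 genes were higher in ELA-EpiSC and 2 lower, where the shares of all genes were 13.6% and 13.7%. With 1 array per group none of these differences had a replicate check. The members were also brighter than most genes, with a median mean log2 signal of 13.78 against 10.93. Among the 5930 genes with a mean of at least 12, 3.17% were higher by at least 1 and 2.14% lower, whereas 10 of the 28 members in that range were higher by at least 1.

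**Figure D1:**
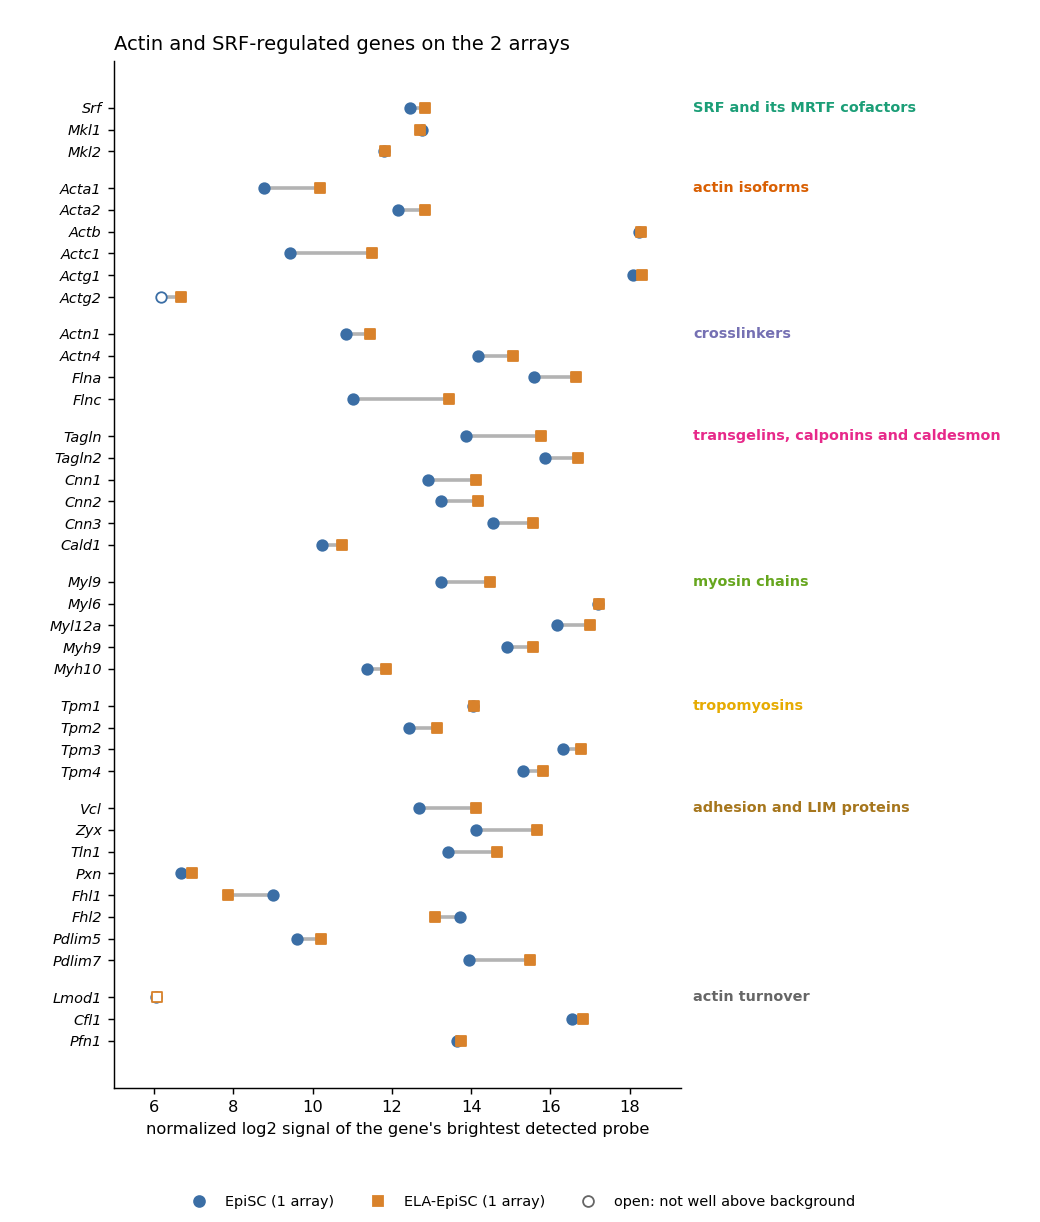
Normalized log2 signal (horizontal axis) of each of the 39 genes, ordered by role, on the EpiSC array (blue circles) and the ELA-EpiSC array (orange squares); the grey bar is the difference, open symbols are not well above background, and there is 1 array per group, so no error bar. Squares lie to the right of circles for 33 of the 36 genes above the minimum signal, most widely for Flnc (2.41) and Actc1 (2.08), and to the left for Mkl1, Fhl1 and Fhl2.

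For the transcription factor at the head of the programme and its cofactors, no brightest probe reached a difference of 0.5. Srf gave levels of 12.45 and 12.84, a difference of 0.38, beyond the spot SD but short of a doubling; a dimmer second probe gave 0.93, the mean of both probes 0.66, and the range over all settings was 0.34 to 0.92. Mkl1 gave 12.75 and 12.70, and Mkl2 gave 11.79 and 11.83. Their differences of -0.05 and 0.04 lay inside the spot SD, and the sign of each turned under some of the alternative settings, with ranges from -0.12 to 0.48 and from -0.05 to 0.57.

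The actin isoforms split by kind. The cytoplasmic isoforms, which every cell carries, differed least. Actb, β-actin, the reference transcript for RT-PCR in the study, gave 18.24 in EpiSC and 18.30 in ELA-EpiSC; its difference of 0.06 lay inside the spot SD and its sign turned under scaling to the 75th percentile, with a range of -0.20 to 0.59 over all settings. Actg1, γ-actin, gave 18.09 and 18.32, a difference of 0.24, and its 5 probes ranged from 0.09 to 0.58; its sign turned under the same scalings, down to -0.07. No spot was saturated on either array, although these were among the brightest probes.

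The muscle isoforms were all higher in ELA-EpiSC. Actc1, cardiac α-actin (probe at chr2:113873064-113873123, mm9), went from a scanner signal of 594.5 to 3170.7, or from 9.42 to 11.50 on the normalized log2 scale, a difference of 2.08 (4.22-fold). Acta1, skeletal α-actin (chr8:126416197-126416256), gave 8.76 and 10.18, a difference of 1.42 (2.67-fold). Both were dim on the EpiSC array, yet well above background there.

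Acta2, smooth muscle α-actin (chr19:34316060-34316119), is the only member printed 10 times, which gives a direct view of the spot error. On the EpiSC array 9 usable spots lay between 11.92 and 12.32 with a median of 12.16, and on the ELA-EpiSC array 10 spots lay between 12.44 and 13.13 with a median of 12.82. The spots of the 2 arrays did not overlap. The averaged probe differed by 0.68 (1.60-fold), and the spot-by-spot difference was 0.72 ± 0.11 (SD over spots of 1 array each, which are not biological replicates). Actg2, the enteric γ isoform, was not well above background in EpiSC and stood barely above it in ELA-EpiSC, at 6.18 and 6.68. As reported, its ELA-EpiSC signal was at least 1.42-fold higher, but over all settings its log2 difference ranged from 0.22 to 2.23. Coding regions of the isoforms are near-identical, and hybridization of 1 isoform to the probe of another was not tested.

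The crosslinkers, which tie filaments into bundles and meshes, were higher in ELA-EpiSC for 4 of 4 genes, and kept that sign under all settings tried. Flnc, the muscle-type filamin (chr6:29411790-29411849), had the largest difference of the 39 genes: scanner signals of 1858.0 and 11958.1, log2 levels of 11.02 and 13.43, a difference of 2.41 (5.30-fold). Its widely expressed relative Flna (chrX:71468802-71468861) gave 15.59 and 16.64, a difference of 1.04, which was under 1 with 4 of the alternative scalings and as low as 0.60. Actn4 and Actn1, the non-muscle α-actinins, stayed below a doubling: Actn4 gave 14.18 and 15.06, and Actn1 gave 10.85 and 11.44, differences of 0.87 and 0.59.

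Transgelins and calponins, actin-binding proteins that are abundant in smooth muscle, were also higher in ELA-EpiSC throughout the family, 6 of 6 genes with caldesmon and under all settings. Tagln, transgelin or SM22 (chr9:45738097-45738156), gave 13.87 and 15.76, a difference of 1.89 (3.71-fold). Cnn1, the smooth muscle calponin (chr9:21913058-21913117), gave 12.91 and 14.12, a difference of 1.21 (2.31-fold). The non-muscle calponins lay at the doubling line. Cnn3 (chr3:121160748-121160807) gave 14.56 and 15.57, a difference of 1.02, and fell under 1 with 4 alternatives, and Cnn2 gave 13.24 and 14.17, a difference of 0.93. Tagln2, the widely expressed transgelin, gave 15.87 and 16.71, a difference of 0.84. Cald1, caldesmon, gave 10.23 and 10.74, a difference of 0.51.

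Among the myosin chains, the regulatory light chain of smooth muscle and non-muscle myosin, Myl9 (chr2:156607301-156607360), had the widest gap: its levels were 13.24 and 14.49, a difference of 1.25 (2.38-fold). Its close relative Myl12a gave 16.17 and 16.99, a difference of 0.83. Myh9, the heavy chain of non-muscle myosin IIA, gave 14.89 and 15.56, a difference of 0.66. Myh10, the heavy chain of myosin IIB, differed by 0.48, and Myl6, the essential light chain, by 0.02, inside the spot SD and of either sign by setting. Myl6 carries a CArG box in its window, as Myl9 does.

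Tropomyosins, which lie along the filament and set its access to myosin, differed by 0.02 to 0.70, and none of the 4 reached a doubling. Tpm2 gave 12.44 and 13.14, a difference of 0.70, and Tpm4 gave 15.30 and 15.81, a difference of 0.52. Tpm3 differed by 0.46. For Tpm1, a gene with many splice isoforms, the probes disagreed more than for any other member: the brightest, at chr9:66875796-66875855 (mm9), went from 14.05 to 14.07, whereas that at chr9:66871166-66871225 went from 13.16 to 14.87, a difference of 1.71. The other 3 Tpm1 probes gave 0.28, 0.31 and 0.90. All 5 were above background on both arrays and none was lower in ELA-EpiSC, so the value of 0.02 for the gene depends on which probe stands for it. Which exon each probe matches was not analysed here.

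Proteins of the adhesions that anchor actin bundles gave 4 of the 12 genes above a doubling. Zyx, zyxin, a LIM protein recruited to adhesions under tension (chr6:42308334-42308393), gave 14.11 and 15.65, a difference of 1.54 (2.91-fold). Pdlim7, a PDZ and LIM protein of actin bundles (chr13:55599777-55599836), gave 13.95 and 15.48, a difference of 1.53, while its dimmer probes gave 0.38 and 0.81. Vcl, vinculin, which links talin to actin (chr14:21852105-21852164), gave 12.68 and 14.12, a difference of 1.44 (2.71-fold), with 0.87 on a second probe.

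Tln1, talin, the protein that joins integrins to actin (chr4:43544393-43544452), gave 13.42 and 14.66, a difference of 1.24, with 0.34 on a second, dim probe. Pdlim5 gave 9.61 and 10.22, a difference of 0.61. Pxn, paxillin, was detected on both arrays but near the background, and differed by 0.26. Zyx, which had 1 probe, and Vcl stayed past a doubling under all settings. Averaging the probes took Pdlim7 to 0.91 and Tln1 to 0.79.

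The FHL genes ran the other way. Fhl1, a four-and-a-half LIM protein of striated muscle (chrX:54045353-54045412), gave scanner signals of 435.0 in EpiSC and 221.9 in ELA-EpiSC, log2 levels of 9.01 and 7.87, a difference of -1.14 (2.20-fold lower in ELA-EpiSC). Fhl2, a cofactor that binds SRF and is itself an SRF target, gave 13.71 and 13.09, a difference of -0.62 (1.54-fold lower). Both have a CArG box in a promoter window, and both stayed below 0 under all settings, Fhl1 between -1.41 and -0.60 and Fhl2 between -0.75 and -0.08. They were the only members lower in ELA-EpiSC by at least 0.5.

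Of the turnover factors, Cfl1, cofilin, which severs filaments, differed by 0.28, and Pfn1, profilin, which feeds monomers to growing ends, by 0.10; the sign of each turned under some settings. Lmod1, leiomodin, a nucleator of smooth muscle actin, stayed at background on both arrays.

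**Figure D2:**
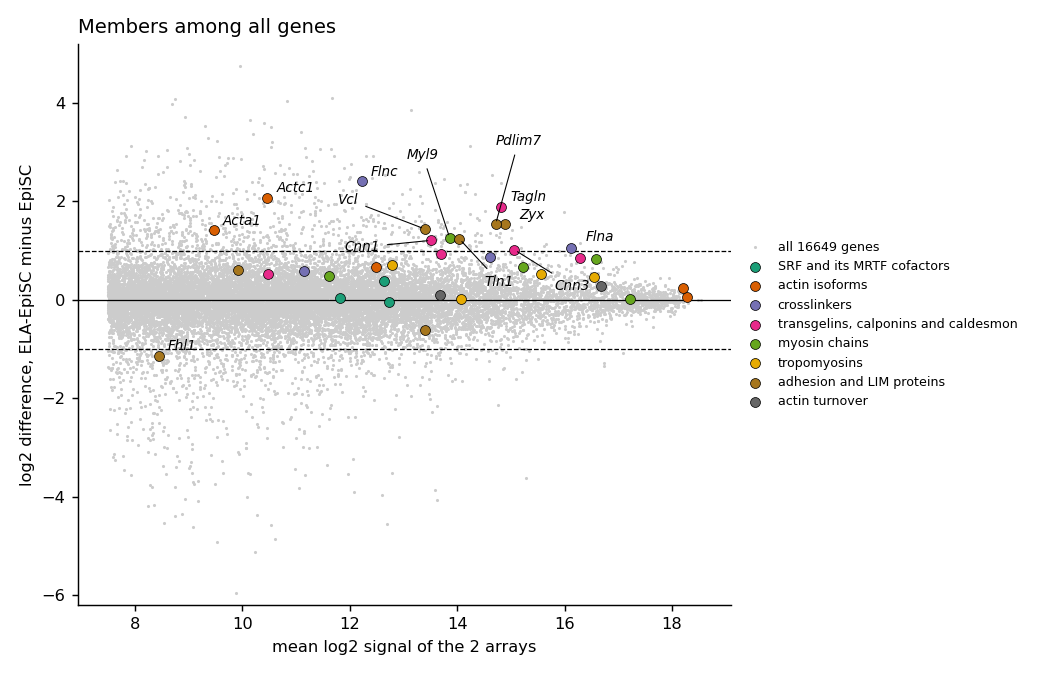
Log2 difference, ELA-EpiSC minus EpiSC (vertical axis), against the mean log2 signal of both arrays (horizontal axis) for all 16649 genes above the minimum (grey) and for the 36 members among them, coloured by role; dashed lines mark differences of 1 and -1. Named points are the 12 genes above the upper line and Fhl1 below the lower one, and most members lie at the bright, right-hand side.

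By presence of an exact CArG box in the promoter window, the members did not divide into higher and lower. The 10 genes with a box had a median difference of 0.65, with 4 genes higher and 1 lower by at least 1. The 24 genes above the minimum with a window and no box had a median of 0.67, with 7 genes higher and 0 lower. Boxes with other letters or outside the window were not searched for, so the group without a box may hold SRF targets. Tagln (1.89) and Actb (0.06) had no window and are in neither group. The medians therefore do not compare genes with and without SRF sites. The largest and the lowest difference among boxed genes, Actc1 at 2.08 and Fhl1 at -1.14, are both in the set of sequences shown above.

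The 39 genes were measured by 71 probes, of which 65 were well above background on both arrays. Of these, 61 were higher in ELA-EpiSC and 4 lower, 13 by at least 1 higher and 1 by at least 1 lower. The matching shares of all probes on the array were not computed. In 18 genes 2 or more probes could be compared, and in 16 of them all probes had the same sign; the exceptions were Mkl1 and Pfn1, with differences near 0. The spread between probes of 1 gene passed 0.5 in 7 genes and was widest in Tpm1 (1.69) and Pdlim7 (1.15). Every dimmer probe gave a smaller difference than the brightest in 10 of these genes, as far as 0.03 for a Cnn3 probe at a level of 7.32 in EpiSC; every dimmer probe gave a larger one in 6 (Srf, Mkl1, Cald1, Myl6, Tpm1 and Pdlim5), and in Actg1 and Cfl1 they lay on both sides. A single probe stood for each of 19 genes, including Flnc, Tagln, Zyx, Myl9 and Cnn1.

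**Figure D3:**
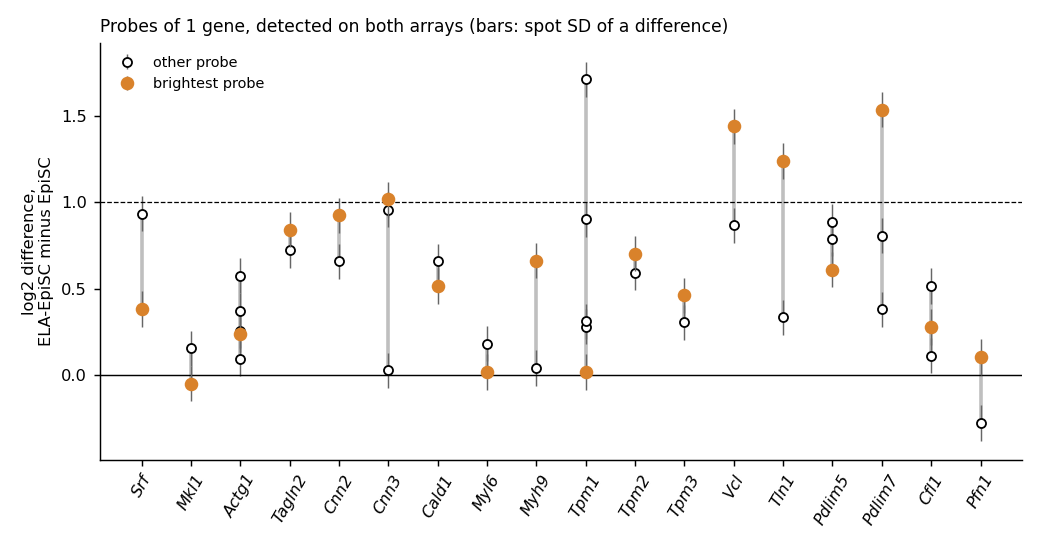
Log2 difference, ELA-EpiSC minus EpiSC, of every probe above background on both arrays for the 18 genes with 2 or more such probes; orange points are the brightest probe, open points the others, and bars the spot SD of a difference (0.10). The Tpm1 probes reach from 0.02 to 1.71, and Mkl1 and Pfn1 are the genes with probes on both sides of 0.

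Other parts of the pathway were described through lists of 58 further genes on the array, 53 of them above the minimum. Of these, 36 had a difference above 0, against 50.2% of all genes. By at least 1, 11 were higher and 3 lower, against 4.54% and 4.46% of all genes. The median was 0.24, below the 0.67 of the members. Among 14 other known MRTF and SRF targets, 6 were higher in ELA-EpiSC and 2 lower by at least 1. Control of these genes by other factors was not examined. Thbs1, the matrix glycoprotein thrombospondin 1, went from 10.12 to 13.19, a difference of 3.07. Ankrd1, a nuclear and sarcomeric ankyrin protein, differed by 2.39, from 6.43 to 8.82, and the matricellular gene Cyr61 by 2.18, from 13.05 to 15.23. Tgfb1i1, the adhesion protein Hic-5, differed by 2.01, Filip1l by 1.67 and Ctgf, a relative of Cyr61, by 1.63. The genes lower by at least 1 in that list were Lima1 at -1.21 and Csrp2 at -1.09.

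Of the 7 immediate-early genes above the minimum, which the ternary complex factors share with SRF, 3 were higher in ELA-EpiSC by at least 1: Egr1 by 1.61, Junb by 1.42 and Egr2 by 1.36. Fos and Fosb had the opposite sign, at -0.91 and -0.77. Among regulators of SRF and MRTF, Elk3, a ternary complex factor, had a brightest probe with a difference of 1.76, while another of its probes gave -0.00. Myocd, myocardin, the muscle-restricted cofactor of SRF, ran opposite to the contractile genes: its levels were 10.53 and 7.60, a difference of -2.93 (7.63-fold lower).

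Genes of filament branching and of further actin turnover had lower medians than the members, 0.33 and 0.15 against 0.67. None of 12 genes of the Arp2/3 complex and its activators, which branch filaments, passed 1; they ranged from -0.75 to 0.84. Of 15 further turnover genes, which ranged from -0.92 to 1.04, Capg, a filament-capping protein, passed with 1.04. Tmsb4x differed by 0.87 and Pfn2 by -0.92, while second probes of these genes gave 0.43 and 0.04. These lists were compared by size alone, with no test.

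**Figure D4:**
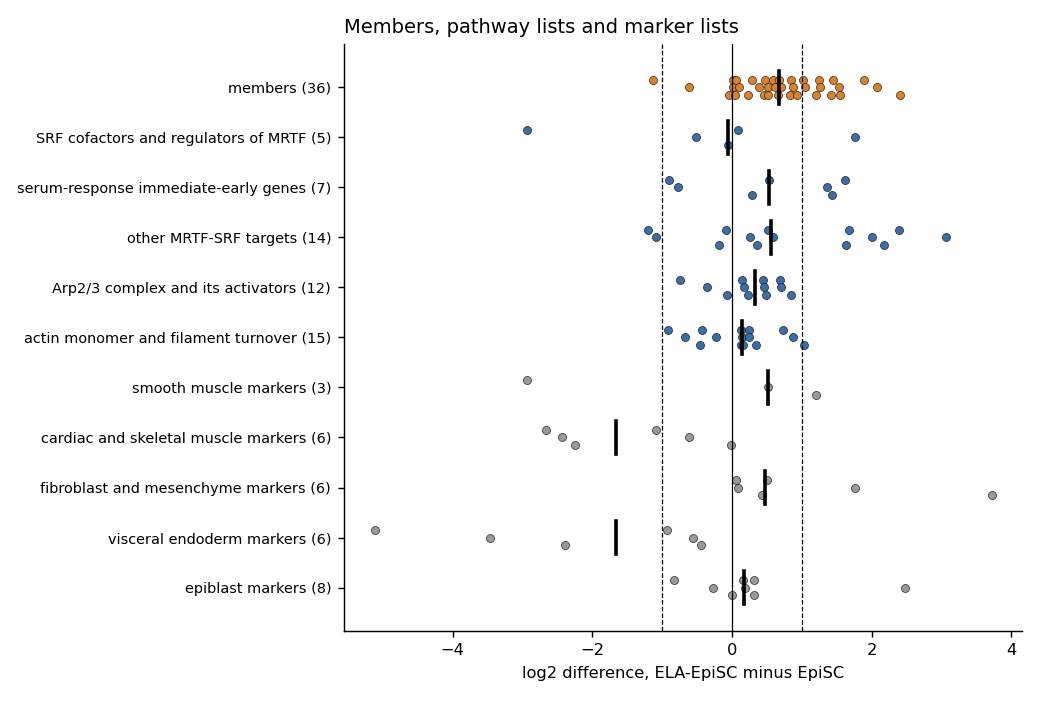
Log2 difference, ELA-EpiSC minus EpiSC (horizontal axis), of each gene above the minimum in the members (orange), the pathway lists (blue) and the marker lists (grey), with the number of genes in brackets and the median as a black bar; dashed lines mark -1 and 1. The members' median is 0.67, the medians of the pathway lists lie between -0.05 and 0.55, and all cardiac and skeletal muscle markers lie below 0, Myh6 at -0.02.

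Markers of cell types that use these contractile genes were set beside them. Of 15 cardiac and skeletal muscle markers, 14 were detected on at least 1 array and 6 were above the minimum. All 6 had a difference below 0, 1 of them, Myh6 (-0.02), inside the spot SD. By at least 1, 4 of them were lower. These were Myl3 (-2.66) and Myh7 (-2.44), a light and a heavy myosin chain of heart and slow muscle, the cardiac factor Nkx2-5 (-2.24) and troponin C, Tnnc1 (-1.08). The summed normalized signal of the list was 10759 in EpiSC and 3400 in ELA-EpiSC, 3.16-fold lower in ELA-EpiSC. Myl3, the brightest gene of the list at 12.48 in EpiSC, weighed most in that sum. Actc1 and Acta1, muscle actins, thus ran opposite to these markers, and Fhl1 ran with them. Myl7, an atrial light chain, was detected in EpiSC alone, at least 6.88-fold above its ELA-EpiSC signal, and the skeletal muscle regulator Myog on neither array. Below the minimum, Ttn (0.63), Tnnt2 (0.36), Mybpc3 (0.36) and Myod1 (0.05) had the opposite sign.

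For smooth muscle, 6 of 7 markers were detected, and the summed signal was 14735 in EpiSC and 25830 in ELA-EpiSC. Most of that gap was Cnn1, itself a member. Without the members the sums were 7014 and 7984, 1.14-fold higher in ELA-EpiSC. Smtn, the brightest of the non-members, gave 12.35 and 12.87, a difference of 0.52, with 0.60 on a second probe. Myocd, on this list too, differed by -2.93. Myh11, the defining heavy chain, was above background only in ELA-EpiSC and barely so, at 6.32 against 6.15, and Des was dim and differed by -0.07.

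For fibroblasts and mesenchyme, 9 of 10 markers were detected, with sums of 4567 and 7486, 1.64-fold higher in ELA-EpiSC, and all 6 above the minimum had a difference above 0, 2 of them, Col1a2 (0.08) and Thy1 (0.05), inside the spot SD. Dcn, detected on both arrays below the minimum, differed by -0.33. Col1a1, collagen I, differed by 3.72, from 7.07 to 10.79, and the receptor Pdgfra by 1.77, while Lum was not detected on either array. The part of such cells in the differences of the contractile genes was not tested.

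The labelled state was checked with epiblast markers, all 8 of which were detected on both arrays. Their summed signal was 276751 in EpiSC and 238504 in ELA-EpiSC, and 6 had a difference above 0 and 2 below it. Pou5f1, the pluripotency factor Oct4, gave 14.27 and 14.46, and Fgf5, a marker of primed epiblast, gave 15.19 and 15.34. The 2 lower in ELA-EpiSC were Sox2 (-0.27) and Dnmt3b (-0.84), whose lowest probe gave -1.11. By the brightest probe, only T, brachyury, a gene of the primitive streak, was past 1, at 11.18 and 13.66, a difference of 2.48. Visceral endoderm markers, 9 of 9 detected, were lower in ELA-EpiSC for all 6 above the minimum, with sums of 58656 and 32231; Hnf4a differed by -5.12, from 12.79 to 7.67, and Gata4 by -2.39, and Ttr was detected in EpiSC alone, with signals of 9.53 and 6.06. Of the visceral endoderm markers below the minimum, Afp (0.21) and Apob (0.55) were higher in ELA-EpiSC. Apoa1, detected in EpiSC alone, was lower (-2.02). The part of visceral endoderm cells in the differences of the contractile genes was likewise not tested.

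The median of the members stood 0.63 to 0.69 above the median of all genes under 7 ways of scaling, the reported one included. That gap can hardly change where a scaling shifts a whole array by 1 constant, as the array median, 75th percentile and spike-in settings do. After normexp, the array median and the 75th percentile both gave 0.63. The spike-in setting gave 0.67, the same as the reported scaling. These settings are thus no separate checks of the gap. Setting the spike-in probes, RNA added in known amounts at labelling, equal on both arrays moved the median of all genes to 0.54. By at least 1, 24 of 36 members were then higher and 0 lower. Of the 17639 genes above the minimum in that setting, 2603 (14.8%) were higher and 321 (1.82%) lower. With the processed signal of the scanner software, scaled to the 75th percentile, the median of all genes moved to -0.08, while Flna went to 0.60 and Tagln2 went to 0.43, and Acta1 went up to 1.64. Scaling to the array median moved the median of all genes to 0.15, with 1114 genes (6.69%) higher and 516 (3.1%) lower. It left Fhl1 at -0.97, short of 1 in size.

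**Figure D5:**
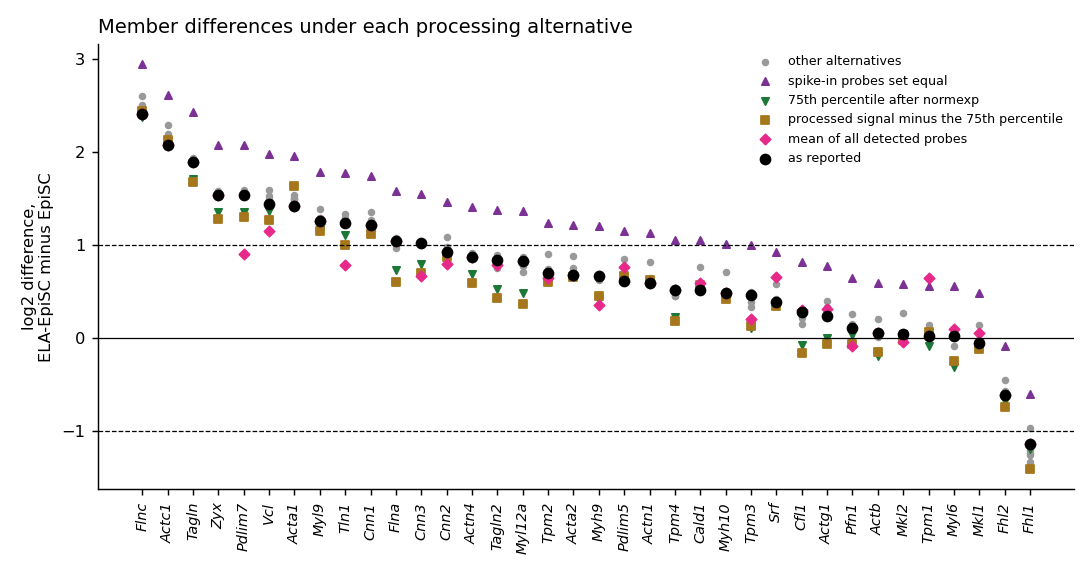
Log2 difference, ELA-EpiSC minus EpiSC (vertical axis), of the 36 members above the minimum as reported (black) and under each processing alternative (coloured or grey symbols); dashed lines mark 1 and -1. The spike-in scaling lifts all members together, and 8 genes, Flnc, Actc1, Tagln, Zyx, Vcl, Acta1, Myl9 and Cnn1, stay above 1 under all alternatives plotted. Of these 8, only Vcl has more than 1 probe, so averaging of probes could not move the others.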

How the data were processed

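Total RNA of 1 EpiSC and 1 ELA-EpiSC pool was labelled with Cy3 and hybridized to Agilent mouse gene expression arrays (62976 spots, 55681 probes for mouse transcripts), both on the same slide and in the same scan. The deposited scanner files hold spot and local background intensity, written by Feature Extraction (10.7.3.1 per the file headers, 9.1 per the labels), with probe positions on mm9. A deposited table holds log2 values that the authors background-corrected and quantile normalized with limma, with an offset that is not given in the sources used here. Here the mean intensity was corrected with the median local background (normexp, offset 50) and quantile normalized in limma 3.58.1 (R 4.3.3), as the methods of the study outline. Outlier spots were left out (158 and 117), and spots of 1 probe were averaged. Detection required that the share of a probe's spots marked by the scanner software as well above background be 0.5 or more. A gene was represented by its detected probe with the highest mean log2, and counted with a mean of at least 7.5. With 1 array per group no test was run, and the number of arrays limits the precision. The procedure was tested on simulated data.

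Values on both arrays are given for Srf, Mkl1, Mkl2, the actin isoforms and each member with a difference of at least 0.5 in size or detected on 1 array only; other members are given by their difference. From the other lists, up to 5 genes with the largest difference past 1 are named per list. Ctgf, Lima1, Csrp2, Fos, Fosb, Tmsb4x, Pfn2 and the markers named below that size or below the minimum signal were chosen after their values were seen. The members and lists were chosen with earlier results of these data known. For a gene detected on 1 array, the bound on its fold used, for the undetected side, either its measured level or the dimmest detected level of that array (5.89 in EpiSC, 6.11 in ELA-EpiSC), whichever was greater. Alternatives covered the background correction, the scaling, the probe rule, the detection filter, the deposited values and the minimum signal. A further list of pathway genes is not reported here.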

Additional observations from a re-analysis of the deposited data

How the results depend on the processing

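No paired analysis was possible because no group held more than 1 array. Of the 13 genes past a difference of 1, 0 changed sign under the 14 alternatives run for each gene, and 8 stayed past 1 under all of them. All of these 8 but Vcl had a single probe, so averaging of probes could not change their values. The alternatives for the detection filter also left the values of the 8 as they were. Averaging took Vcl to 1.15, and it took Cnn3, Tln1 and Pdlim7 under 1, to 0.67, 0.79 and 0.91. Flna and Cnn3 were under 1 with 4 alternatives each, Tln1 and Fhl1 with 2 each and Pdlim7 with 1. A sign change under at least 1 alternative was seen in 8 of 38 genes, all with a difference inside 0.28 on either side of 0. The median difference of the members, 0.67 as reported, was 0.56 with the 75th percentile after normexp, 0.79 with the array median and 1.20 with the spike-in probes set equal. With the spike-in scaling the count of members past 1 was 24 higher and 0 lower, and that of pathway genes 20 higher and 1 lower. The shares of all genes in that setting were 14.8% higher and 1.82% lower. The array median left 0 members lower by at least 1, against 3.1% of all genes. A size of 1.5-fold gave 21 members higher and 2 lower, and 16 pathway genes higher and 8 lower, by its construction. The shares of all genes at that size were not computed. A minimum mean log2 of 12, chosen after seeing the data, left 0 members lower, and 4 pathway genes higher and 1 lower, with fewer genes counted. The shares of all genes at that minimum were 3.17% higher and 2.14% lower. The cause of the scaling differences was not tested, and the spike-in probes detected on both arrays, 8 of 10, differed by -0.54 on average. Their differences varied with the signal: -0.32 at a level of 6.77 in EpiSC, -0.86 at 11.04 and -0.26 at 17.74. The spike-in setting nonetheless applied 1 constant at all levels. Dim genes are limited by the signal over background: Actg2, Pxn and Lmod1 lay too close to it to be counted.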
